A study of Mus musculus with 8 samples.

Results

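The kinetochore and centromere genes described here are 10 genes of the mouse: Ndc80, Nuf2, Spc24, Spc25, Cenpa, Cenpe, Cenpf, Cenph, Cenpk and Zwilch. They were found by symbol, as the probe sets annotated to 1 of these symbols alone. That gave 18 probe sets of the 34945 paired with 1 symbol, and 10 of 18193 genes. Each gene was read from its main probe set, the one with the highest mean log2 signal over the 8 arrays, and the other 8 probe sets, which belong to 5 of the genes, are given beside it. The arrays measured RNA of mouse optic nerves in organotypic culture, in 4 samples with lithium and 4 without. The question addressed is how transcript levels of the cell division machinery differed between nerves kept with and without lithium.

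The Lithium samples were nerves kept for 3 days in vitro with 20 mM lithium chloride, and the Control samples were kept for the same 3 days with saline in its place. Both came from C57BL/6 mice of postnatal day 35 to 45 according to the sample labels, which give 6 nerves per sample, whereas the study's methods name the C57/BL10 strain, another number of nerves, and cultures that kept the retina attached. No genetic change is given for either group. Neither source says whether the 4 samples in each group had different animals or cultures as their origin, so the p-values here speak of the scatter among these samples alone, and that scatter may be technical. The nerve is a mixture of cells, and in such bulk samples fewer dividing cells and less RNA per dividing cell cannot be told apart.

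The kinetochore is the protein structure built on the centromere of each chromosome, where spindle microtubules attach in mitosis. CENP-A, a variant of histone H3, marks the centromere, the constitutive network with CENP-H and CENP-K sits on it, and the Ndc80 complex (Ndc80, Nuf2, Spc24 and Spc25) reaches out to bind the microtubule. CENP-E and CENP-F are large proteins of the outer surface and Zwilch is a subunit of the complex with ROD and ZW10, which serves the spindle checkpoint. Many of these genes are transcribed mainly in G2 and mitosis, so that their RNA is low in tissue with few dividing cells, such as adult white matter.

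Promoters of genes with such timing often carry 2 kinds of short sequence, the cell cycle genes homology region (TTTGAA), bound by complexes with the MuvB core, and upstream CCAAT boxes, bound by NF-Y. RefSeq promoter windows of the GRCm38.p6 assembly, 250 bases before to 50 bases after an annotated start, were found for 8 of the 10 genes (10 windows, 3 of them of Cenpk), and not for Spc24 or Zwilch. The letters TTTGAA, on either strand, lay in 4 of the 10 member windows and in 17.9% of 32851 windows in all. In these 4 genes the match lay within the 50 bases after the start, where 2.25% of all windows held it. The 30 bases around the match are shown because they are the only such matches in the member windows, with TTTGAA in capitals (TTCAAA for Ndc80, where it lies on the opposite strand), each 5′ to 3′ on the gene's own strand.
Cenpa, chr5:30666890-30666919, plus strand: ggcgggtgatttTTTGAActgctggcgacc
Cenpf, chr1:189688067-189688096, minus strand: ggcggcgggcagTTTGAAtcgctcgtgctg
Spc25, chr2:69206172-69206201, minus strand: ggcggtggagagTTTGAAattgaaagactg
Ndc80, chr17:71526811-71526840, minus strand: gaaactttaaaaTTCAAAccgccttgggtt
The match began at +17 in Cenpa, +3 in Cenpf, +25 in Spc25 and +30 in Ndc80. A match describes the letters of the window and is not a binding site.

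CCAAT, on either strand, lay in 8 of the 10 member windows (6 of 8 genes) and in 37.4% of all windows. No match was found in the windows of Ndc80 or Nuf2. The 140 bases before the start are shown for the 4 genes that held a pair of CCAAT matches there, with CCAAT (or ATTGG, its opposite strand) in capitals, each on the gene's own strand.
Cenpa, chr5:30666746-30666885, plus strand: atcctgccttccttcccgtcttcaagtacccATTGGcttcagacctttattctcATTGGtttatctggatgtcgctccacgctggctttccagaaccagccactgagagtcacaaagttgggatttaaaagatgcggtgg
Cenpf, chr1:189688087-189688226, minus strand: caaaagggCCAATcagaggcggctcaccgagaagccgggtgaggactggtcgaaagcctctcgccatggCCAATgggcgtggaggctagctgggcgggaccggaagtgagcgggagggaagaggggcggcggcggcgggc
Spc25, chr2:69206214-69206353, minus strand: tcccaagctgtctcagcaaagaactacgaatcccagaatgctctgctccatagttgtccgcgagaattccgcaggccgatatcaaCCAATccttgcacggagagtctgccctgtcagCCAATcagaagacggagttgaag
Cenpk, second of its 3 starts, chr13:104228826-104228965, plus strand: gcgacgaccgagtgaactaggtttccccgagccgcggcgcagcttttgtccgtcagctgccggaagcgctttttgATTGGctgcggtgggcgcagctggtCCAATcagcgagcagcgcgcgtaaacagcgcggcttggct
The paired matches began 23 bases apart in Cenpa, 61 in Cenpf, 32 in Spc25 and 25 in Cenpk. Both kinds of match were present in Cenpa, Cenpf and Spc25, where they did not overlap each other.

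The values are MAS5 signals, linear intensities that the authors scaled to a common level, with a trimmed mean of 100 on every array once the top and bottom 2% of signals were set aside. The highest signal of 27 poly-A control probe sets served as the background limit of an array, and it lay between 2.13 and 5.64. Array medians were 12.3 to 16.5 in Lithium and 14.8 to 17.5 in Control. The labelled tissue showed its defining markers: Gfap of astrocytes averaged 1487 ± 170.2 in Lithium and 1593 ± 97.1 in Control, and Mbp of myelin 2504 ± 483 in Lithium and 2345 ± 93.8 in Control (SD, n = 4 each). Of 7 markers of retinal neurons measured, Nrl, Crx and Pde6b of photoreceptors lay under the limit on every array, Opn1sw lay above it on 1 array in each group, and Isl1 on 1 Control array. Pou4f1 lay at or under the limit on 1 array in each group, and Rbpms, a gene of retinal ganglion cells, was above it on all 8 arrays, with means of 44.7 ± 12.8 in Lithium and 60.9 ± 10.4 in Control. The log2 ratio of 3' to 5' probe sets, a sign of RNA integrity, was 0.43 ± 0.07 in Lithium and 0.37 ± 0.02 in Control for Gapdh, and 0.66 ± 0.10 in Lithium and 0.68 ± 0.03 in Control for Actb.

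The 10 kinetochore genes all had a lower mean log2 signal in Lithium than in Control, as did 50.3% of all genes. With limma's moderated test and Benjamini-Hochberg adjustment over all 45037 probe sets, Ndc80, Spc24 and Cenpa fell (3 of 10, against 2.05% of all genes) and the other 7 did not pass an adjusted p of 0.05 (0.0582 to 0.207). By limma none of the 10 rose, against 1.18% of all genes, and 0 were higher at an unadjusted p under 0.05. At an unadjusted p under 0.05 all 10 were lower, against 12.6% of all genes. The Lithium values lay under all Control values in 9 of 10 genes, against 8.79% of all genes, and Spc25 was the gene with overlap.

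The median log2 fold change of the 10 genes was -2.80, a 6.94-fold lower signal, and -2.53 with Ndc80 at its bound, whereas the median of all genes was -0.00. With log2 of the value plus 16, which compresses low signals, it was -1.36 (2.57-fold). Each of the 10 was lower in Lithium in all 4 pairs of samples with the same number. For the 9 genes without overlap between the groups this follows from that, and the share of all genes was not counted. With the replicate number as a block, limma passed 0 of the 10 (adjusted p 0.0540 to 0.110, against 0.346% of all genes). In that fit all 10 were lower at an unadjusted p under 0.05, where the share of all genes was not counted. With a term for arrays 1 and 2 against 3 and 4, all 10 passed (adjusted p 0.00516 to 0.0339, against 5.71% of all genes). Without Control 1, Control 3, Control 4, Lithium 1, Lithium 2 or Lithium 3 the count was 1, which was Cenpa in each, without Control 2 it was 2, and without Lithium 4 it was 3. The share of all genes that fell was also lower in these 8 fits, at 0.330% to 1.31%.

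**Figure D1:**
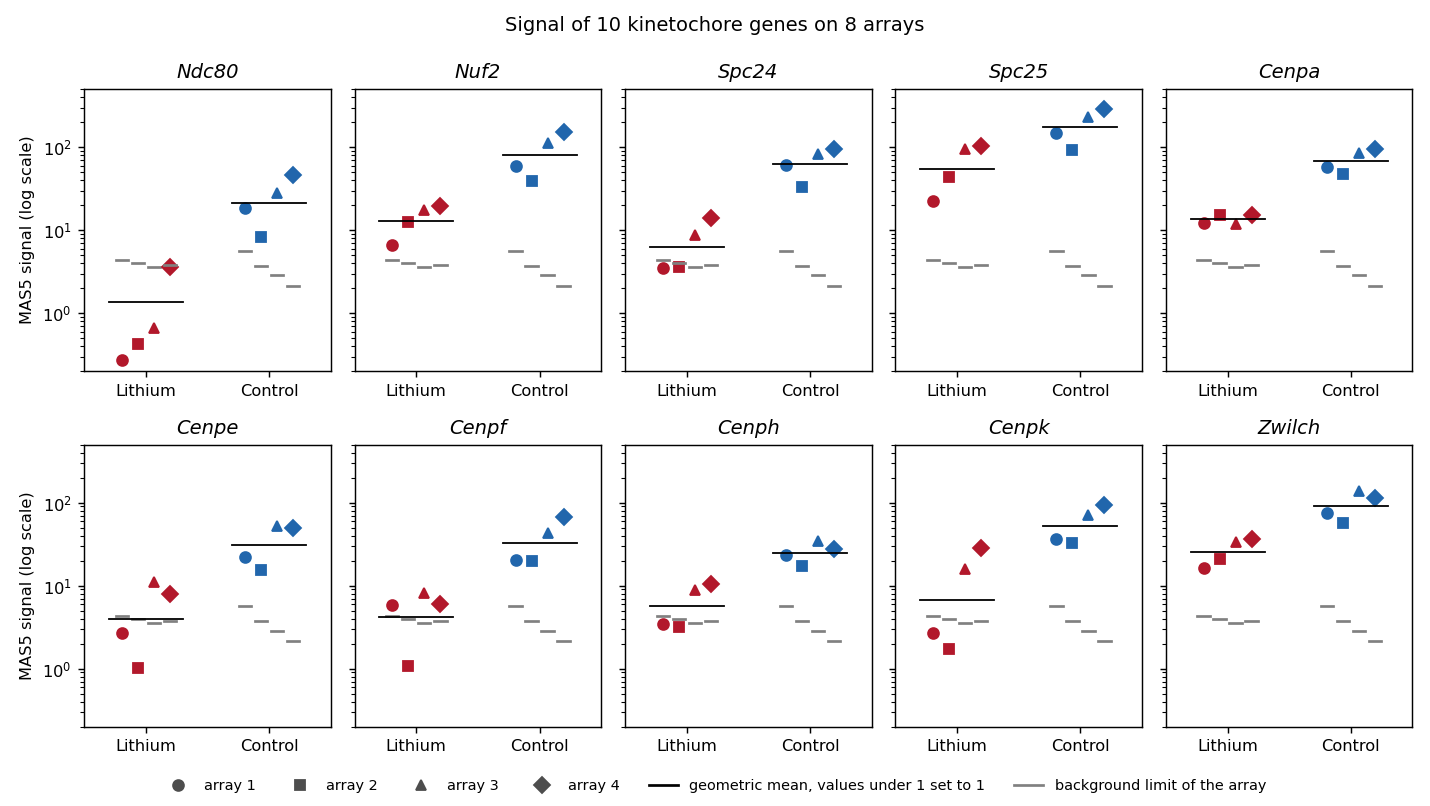
MAS5 signal (log axis, arbitrary units scaled to a trimmed mean of 100 per array) of the main probe set of each of the 10 kinetochore genes, with 4 Lithium samples left of 4 Control samples and symbols marking the array number. Black lines are geometric means and grey lines the background limit of each array, and the groups are apart in every gene but Spc25, where Lithium 3 and Lithium 4 (93.9 and 101.8) lie above Control 2 (91.8).

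The Ndc80 complex is the microtubule-binding rod of the outer kinetochore, made of the Ndc80-Nuf2 and Spc24-Spc25 dimers. Ndc80, the subunit that contacts the microtubule, had signals of 0.276, 0.425, 0.666 and 3.60 in Lithium 1 to 4, against 18.7, 8.37, 28.2 and 45.8 in Control 1 to 4. Every Lithium value lay at or under the background limit of its array and every Control value lay above it. Ndc80 therefore has only a bound, at least 5.42-fold lower in Lithium (limma adjusted p = 0.0365, means 1.24 ± 1.58 in Lithium and 25.3 ± 15.9 in Control, SD, n = 4 each). Values under 1 were set to 1 before the logarithm, which applied to 3 of the 4 Lithium samples.

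Nuf2, the partner of Ndc80, had signals of 6.62, 12.6, 17.3 and 19.3 in Lithium 1 to 4, against 59.5, 38.9, 113 and 154 in Control 1 to 4. The highest Lithium sample stayed under the lowest Control sample, Control 2. The log2 fold change was -2.63 (SE 0.53) and the adjusted p of 0.0582 did not pass.

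Spc24, which with Spc25 anchors the complex to the inner kinetochore, had signals of 3.52, 3.62, 8.71 and 13.9 in Lithium 1 to 4, against 61.3, 33.5, 81.6 and 94.5 in Control 1 to 4. The groups were well apart, although 2 of the 4 Lithium values were at or under the limit. Spc24 fell by 3.33 on the log2 scale (SE 0.55, adjusted p = 0.0367). Spc25 had signals of 22.2, 43.7, 93.9 and 101.8 in Lithium 1 to 4, against 147, 91.8, 229.6 and 291 in Control 1 to 4. Here Lithium 3 and 4 reached the level of Control 2, and the log2 fold change of -1.65 (SE 0.59) was the smallest in size of the 10 and did not pass (adjusted p = 0.207), and it was -0.94 with both Spc25 probe sets averaged. The second Spc25 probe set (1453815_at) differed by -0.22 on the log2 scale (adjusted p = 0.742), with means of 6.06 ± 1.78 in Lithium and 6.99 ± 1.72 in Control, near the limits.

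Leaving out 1 array at a time, Ndc80 passed only without Control 2 or without Lithium 4 (adjusted p 0.0402 to 0.0925 over the 8 fits), and Spc24 only without Lithium 4 (0.0412 to 0.0987). Over these fits the log2 fold change was -4.41 to -3.57 for Ndc80, fitted on values set to 1 and no bound, and -3.72 to -3.05 for Spc24. Neither passed with the replicate block (0.0550 for Ndc80 and 0.0540 for Spc24). With log2 of the value plus 16, Ndc80 did not pass (log2 fold change -1.18, adjusted p = 0.0515) and Spc24 did (-1.80, adjusted p = 0.0164).

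Cenpa, the centromeric histone, had the smallest standard error of the 10 genes. Its signals were 12.1, 15.0, 11.8 and 15.1 in Lithium 1 to 4, against 57.9, 46.8, 85.0 and 96.2 in Control 1 to 4. The 4 Lithium samples were close together and each lay well under the lowest Control sample, and no value was at or under the limit. Cenpa fell by 2.35 on the log2 scale (SE 0.25, 5.10-fold, adjusted p = 0.0146), with means of 13.5 ± 1.80 in Lithium and 71.5 ± 23.0 in Control (SD, n = 4 each). It passed in all 8 fits that left out 1 array (adjusted p 0.0230 to 0.0485) and missed the threshold with the replicate block (0.0619). Its other probe sets lay low: on the log2 scale 1444416_at differed by -1.98 (adjusted p = 0.0959) and 1441864_x_at by -0.99 (adjusted p = 0.409), with all Lithium values and 3 of 4 Control values of 1441864_x_at at or under the limit.

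Cenph and Cenpk belong to the constitutive centromere network, which links CENP-A chromatin to the outer kinetochore. Cenph had signals of 3.44, 3.18, 8.83 and 10.5 in Lithium 1 to 4, against 23.2, 17.4, 34.5 and 27.3 in Control 1 to 4. The groups did not overlap and 2 Lithium values were at or under the limit, with a log2 fold change of -2.14 (SE 0.46, adjusted p = 0.0698). Cenpk had signals of 2.70, 1.72, 15.7 and 28.7 in Lithium 1 to 4, against 36.1, 32.5, 71.7 and 92.4 in Control 1 to 4. Lithium 1 and 2, both at or under the limit, were far below Lithium 3 and 4, the widest gap within Lithium among the 10 genes, where the mean of arrays 3 and 4 was 10.1 times that of arrays 1 and 2. Its log2 fold change was -2.97 (SE 0.97, adjusted p = 0.173), and -1.34 with all 3 Cenpk probe sets averaged. The remaining Cenpk probe sets, 1437068_at and 1457001_at, overlapped between the groups, with log2 fold changes of -0.81 (adjusted p = 0.256) and -0.23 (adjusted p = 0.912).

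Cenpe encodes a kinesin motor that carries chromosomes along microtubules. It had signals of 2.67, 1.01, 11.2 and 7.98 in Lithium 1 to 4, against 22.2, 15.5, 52.5 and 49.4 in Control 1 to 4. Again Lithium 1 and 2 were lowest, both at or under the limit, and no Lithium sample reached Control 2. The log2 fold change was -2.96 (SE 0.84, adjusted p = 0.125). The other Cenpe probe set, 1439040_at, read 2.51, 2.12, 4.85 and 4.92 in Lithium 1 to 4, against 15.1, 12.2, 22.8 and 29.1 in Control 1 to 4. It varied less within Lithium and passed, with a log2 fold change of -2.48 (SE 0.40, adjusted p = 0.0353).

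Cenpf encodes a large coiled-coil protein that joins the outer kinetochore late in G2. It had signals of 5.84, 1.07, 8.14 and 6.09 in Lithium 1 to 4, against 20.6, 19.6, 42.5 and 68.1 in Control 1 to 4. Lithium 2 was far under the other Lithium samples and was the 1 value at or under the limit, and the log2 fold change of -2.97 (SE 0.74) did not pass (adjusted p = 0.0958). Both other Cenpf probe sets passed. In 1458447_at all Lithium values and no Control value were at or under the limit, so that it was at least 3.09-fold lower in Lithium (adjusted p = 0.0186, means 0.673 ± 0.683 in Lithium and 13.6 ± 7.73 in Control). In 1452334_at all Lithium values and 2 Control values were at or under the limit, and the adjusted p was 0.0345, with means of 0.961 ± 0.581 in Lithium and 3.87 ± 1.03 in Control.

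Zwilch had signals of 16.3, 20.7, 33.9 and 36.3 in Lithium 1 to 4, against 74.7, 57.1, 137 and 115 in Control 1 to 4. All 8 values lay above the limit and the groups did not overlap. The log2 fold change was -1.84 (SE 0.38, adjusted p = 0.0608). Of its partners in the same complex, chosen for this relation after their values were seen, Zw10 averaged 97.9 ± 14.2 in Lithium and 77.1 ± 8.96 in Control (log2 fold change 0.34, adjusted p = 0.268). Kntc1, which encodes ROD, averaged 11.2 ± 11.3 in Lithium and 63.2 ± 30.2 in Control (log2 fold change -3.27, adjusted p = 0.165).

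Over all 18 probe sets of the 10 genes, 18 had a lower mean log2 signal in Lithium, and 14 did not overlap between the groups (against 6.29% of all probe sets). By limma 6 passed as lower (against 1.39%) and 0 as higher (against 0.944%). The 14 include 1441864_x_at of Cenpa and 1452334_at of Cenpf, and the 6 include 1452334_at. In these, all Lithium values and some Control values were at or under the limit. Where a difference of 2-fold or more and a group mean of 200 or more were also required, limma passed 0 of the 10 genes, against 0.242% of all genes. The highest Control mean among them was 189.8, of Spc25.

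**Figure D2:**
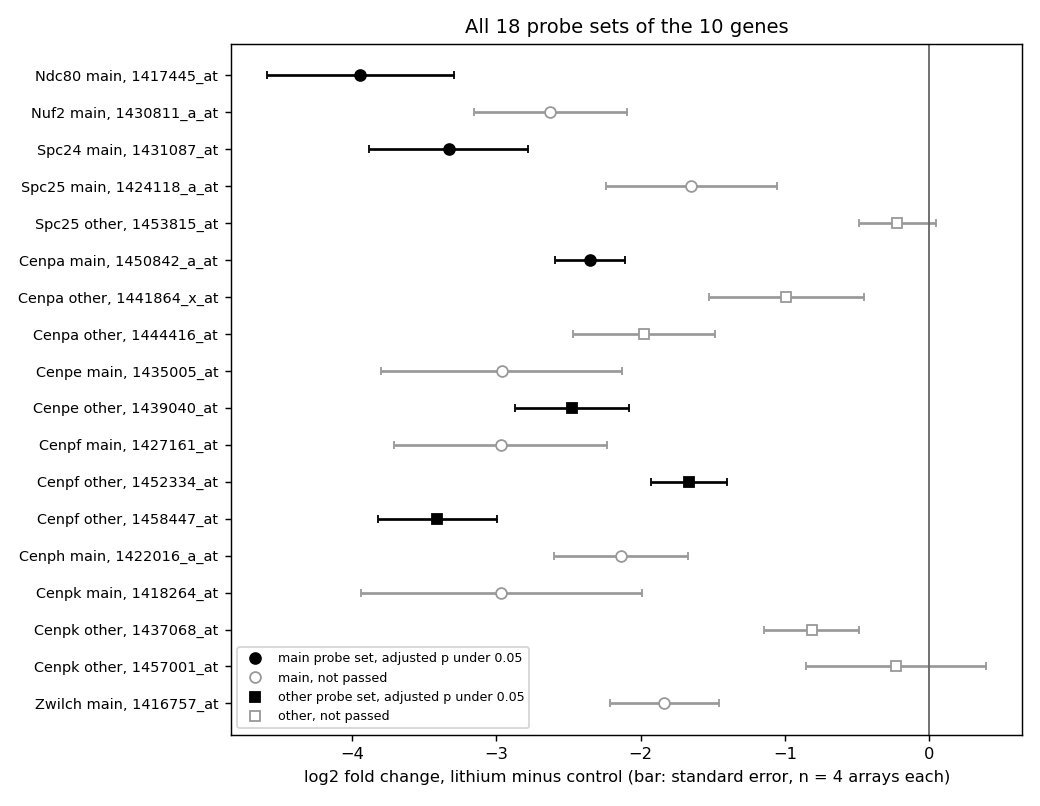
Log2 fold change (Lithium minus Control) with its standard error for all 18 probe sets of the 10 genes, main and other probe sets marked apart, and those at an adjusted p under 0.05 filled. All 18 lie under 0 and 6 pass, with Cenpa, Spc24 and Ndc80 passing at their main probe set.

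The order of the arrays was shared across the genes. Control 2 was the lowest Control sample in 10 of 10 genes, and the highest was Control 4 in 7 and Control 3 in 3. Among Lithium samples the highest was Lithium 4 in 8 genes and Lithium 3 in 2, and, leaving out Ndc80, the lowest was Lithium 1 in 4, Lithium 2 in 4 and Lithium 3 in 1. Control 3 and 4 both lay above Control 1 and 2 in 10 of 10 genes, against 27.8% of all genes. With values under 1 set to 1, Lithium 3 and 4 both lay above Lithium 1 and 2 in 8 of 10, against 30.8% of all genes, and the exceptions were Cenpa and Ndc80, whose Lithium 1 to 3 were all set to 1.

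In size, arrays 3 and 4 exceeded arrays 1 and 2 by a median of 1.52 in Lithium and 1.20 in Control on the log2 scale over the 10 genes, whereas over all genes the medians were 0.07 in Lithium and 0 in Control. The labels do not say what the numbers stand for. Within arrays 1 and 2, and again within arrays 3 and 4, the Lithium values of all 10 genes lay under the Control values. The median log2 difference, Lithium minus Control, was -2.80 in the first of these pairs of arrays and -2.59 in the second.

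**Figure D3:**
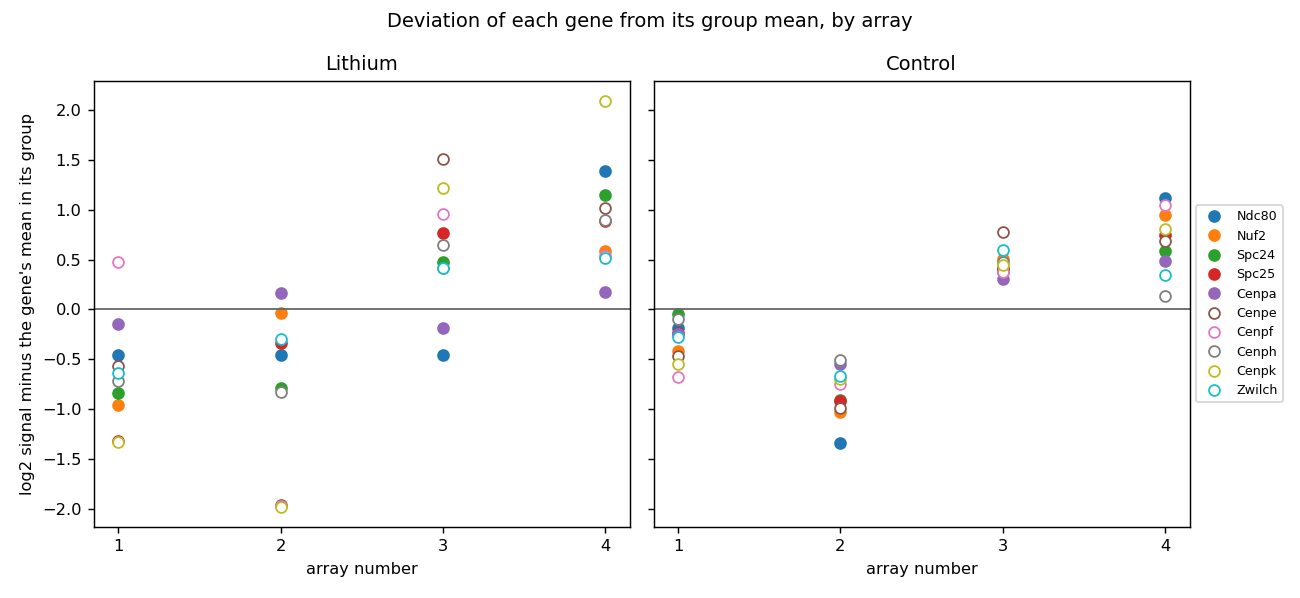
Log2 signal of each of the 10 genes minus its mean in the same group (values under 1 set to 1), by array number, with Lithium in the left panel, Control in the right and 1 point per gene. In both panels most genes lie under 0 on arrays 1 and 2 and above 0 on arrays 3 and 4, and in Lithium Cenpa stays near 0 and Cenpk spreads widely.

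Minus each gene's mean over the 8 arrays, the median log2 signal of the 10 genes was -2.09, -2.16, -0.51 and -0.49 in Lithium 1 to 4 and 0.93, 0.59, 1.84 and 2.21 in Control 1 to 4. The genes differed in how closely they followed this shared profile. The root mean square difference of a gene from the median of the 10, over the 8 arrays on the log2 scale, was smallest at 0.353 for Nuf2, 0.396 for Spc24 and 0.414 for Cenph. It was widest for Ndc80 (0.843), whose Lithium values were set to 1 in 3 samples, Cenpk (0.661), Cenpa (0.643) and Cenpf (0.631). Cenpk differed by its steep gap within Lithium and Cenpa by the lack of one.

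Among 13062 other genes with at least the lowest mean level of the 10, the 5 with the most similar profile over the 8 arrays were Fbln2 (0.185), Mastl (0.195), Kcnj8 (0.236), Pimreg (0.267) and Knstrn (0.271). Mastl encodes the Greatwall kinase of mitotic entry, and Knstrn a spindle and kinetochore protein. Fbln2 encodes a matrix protein, and Kcnj8 a potassium channel subunit of pericytes and smooth muscle. Their similarity includes the difference between the groups, since the profile was taken over all samples. Mastl (log2 fold change -2.66, adjusted p = 0.0392), Pimreg (-3.04, adjusted p = 0.0401) and Knstrn (-2.63, adjusted p = 0.0338) fell, while Fbln2 (-2.45, adjusted p = 0.0772) and Kcnj8 (-2.35, adjusted p = 0.0714) did not pass. In the 8 fits that left out 1 array none of the 5 passed by limma, and with the replicate block Mastl, Pimreg and Knstrn passed.

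Other genes of the kinetochore were read from 2 wider lists. Of their 31 measured genes, 4 fell (Cenpp, Ska1, Ska3 and Sgo2a, against 2.05% of all genes), 0 rose (against 1.18%) and 27 did not pass. All Lithium values lay under all Control values in 17 (against 8.79%). At an unadjusted p under 0.05 by limma, 19 were lower (against 12.6%) and 1 was higher. The median log2 fold change of the 31 genes was -1.01, beside -2.80 for the 10 genes. The difference between these medians was not tested.

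In the list of 20 other centromere proteins, Mis12 complex subunits and Knl1, 1 fell (against 2.05% of all genes) and 19 did not pass, with a median of -0.73. Cenpp, a subunit of the constitutive network, averaged 23.8 ± 4.97 in Lithium and 81.9 ± 14.2 in Control (log2 fold change -1.79, adjusted p = 0.0160). Knl1, the scaffold that receives the checkpoint kinases and binds beside the Ndc80 complex, lay at or under the limit in all Lithium samples, at least 3.47-fold lower in Lithium, and did not pass (adjusted p = 0.0519). Cenpq averaged 162 ± 21.8 in Lithium and 255 ± 41.9 in Control (log2 fold change -0.65, adjusted p = 0.0730).

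In the list of corona proteins, microtubule couplers and CENP-A loading factors, 3 of 11 measured fell (against 2.05% of all genes) and 8 did not pass, with a median of -1.60. Sgo2a, a shugoshin that protects centromeric cohesion, averaged 10.9 ± 1.67 in Lithium and 52.8 ± 13.9 in Control (log2 fold change -2.25, adjusted p = 0.0139). Ska1 and Ska3, of the complex that helps Ndc80 hold on to microtubules, had log2 fold changes of -2.90 (adjusted p = 0.0446) and -1.83 (adjusted p = 0.0458). Of these 4 fallen genes, Sgo2a passed in all 8 fits that left out 1 array, Cenpp in 7 (not without Control 3), Ska1 in 1 (without Lithium 4) and Ska3 in 0. With the replicate block Cenpp (0.0386) and Sgo2a (0.0394) passed, and Ska1 (0.0753) and Ska3 (0.0816) did not. Cenpp did not pass when all its probe sets were averaged (0.0560), nor Ska1 with log2 of the value plus 16 (log2 fold change -0.85, adjusted p = 0.0602).

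Proliferation markers were set beside the kinetochore genes. Of 9 measured, 2 fell (against 2.05% of all genes) and 7 did not pass, with a median of -2.89. Summed signals were 884 to 1302 in Lithium and 2114 to 3202 in Control. Ccna2, the cyclin of S and G2 phase, averaged 19.9 ± 7.47 in Lithium and 183 ± 74.6 in Control (log2 fold change -3.18, adjusted p = 0.0199). On the log2 scale Plk1, a mitotic kinase, differed by -2.89 (adjusted p = 0.0469), and Cdk1, the kinase that drives mitotic entry, by -3.40 (adjusted p = 0.0520). Without 1 array, Ccna2 passed in 4 of 8 fits (without Control 2, Lithium 2, Lithium 3 or Lithium 4) and Plk1 in 0, and with the replicate block Ccna2 passed (0.0386) and Plk1 did not (0.113).

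A list of 12 transcription regulators held MuvB, B-Myb, FOXM1 and E2F genes, and no subunit of NF-Y, which binds CCAAT boxes. By limma 0 of the 12 fell (against 2.05% of all genes) and 0 rose (against 1.18%), with a median of -0.21. At an unadjusted p under 0.05, 5 were lower (against 12.6%) and 0 higher. The lowest adjusted p were those of Rbl1, a pocket protein (log2 fold change -0.71, adjusted p = 0.0565), Foxm1, an activator of mitotic genes (-1.29, adjusted p = 0.103, from a probe set ending in _x_at, and -2.84 from another, adjusted p = 0.109), and Lin9, of the MuvB core (-0.84, adjusted p = 0.129). The letters TTTGAA lay in the windows of 10 of 29 other kinetochore genes with a window, in 3 of them within the 50 bases after the start, and CCAAT in 18 of 29. These are counts of genes, and a gene can have more than 1 window. The shares given above are of windows, so they are not a background for these counts.

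Markers of the cells that the nerve and its coverings hold were set beside these values. The share of all genes that fell was 2.05%. Of 7 meningeal fibroblast markers 4 fell (Lum, Col3a1, Twist1 and Foxc1, with adjusted p of 0.0469, 0.0321, 0.0376 and 0.0108), with a median of -1.62 and summed signals of 795 to 2088 in Lithium and 3200 to 5022 in Control. Foxc1 passed in all 8 fits that left out 1 array, Lum in 0, and Col3a1 and Twist1 only without Lithium 4. Of 6 pericyte and smooth muscle markers 1 fell (Pdgfrb, adjusted p = 0.0401), with a median of -1.50 and summed signals of 127 to 156 in Lithium and 240 to 781 in Control. Of 6 endothelial markers 1 fell (Kdr, adjusted p = 0.0321), with a median of -0.25 and summed signals of 195 to 387 in Lithium and 187 to 460 in Control. Pdgfrb passed only without Lithium 4, and Kdr only without Control 1, among the fits that left out 1 array. With the replicate block none of these 6 passed by limma (adjusted p 0.125 for Lum, 0.0663 for Col3a1, 0.115 for Twist1, 0.0564 for Foxc1, 0.0550 for Pdgfrb and 0.0989 for Kdr).

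By limma none of the 7 astrocyte, 5 oligodendrocyte, 6 oligodendrocyte precursor, 7 microglia or 7 retinal markers measured passed. At an unadjusted p under 0.05 by limma, where 12.6% of all genes were lower, 1 precursor marker was lower and 1 was higher. At that threshold 1 microglia marker was lower and the other lists had 0. The precursor markers were Pdgfra, lower (208 ± 117 in Lithium, 527 ± 83.5 in Control, log2 fold change -1.52, adjusted p = 0.124), and Olig2, higher (297 ± 77.2 in Lithium, 171 ± 19.7 in Control, 0.77, adjusted p = 0.103). Of the 6 precursor markers, 2 lay lower in Lithium without overlap (against 8.79% of all genes) and 1 higher, for which the share of all genes was not counted. The astrocyte markers had a median of 0.06 and summed signals of 6371 to 7590 in Lithium and 6834 to 7215 in Control. The oligodendrocyte markers had a median of 0.08 and sums of 7972 to 10912 in Lithium and 8076 to 8528 in Control, and the precursor markers a median of -0.14 and sums of 1163 to 1407 in Lithium and 1493 to 1686 in Control. The microglia markers had a median of -0.25 and sums of 773 to 1097 in Lithium and 969 to 1361 in Control. The retinal markers had a median of -0.00 and sums of 46.4 to 83.4 in Lithium and 57.5 to 98.6 in Control. The part of the fibroblast, pericyte and precursor markers in the fall of the kinetochore genes was not tested.

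**Figure D4:**
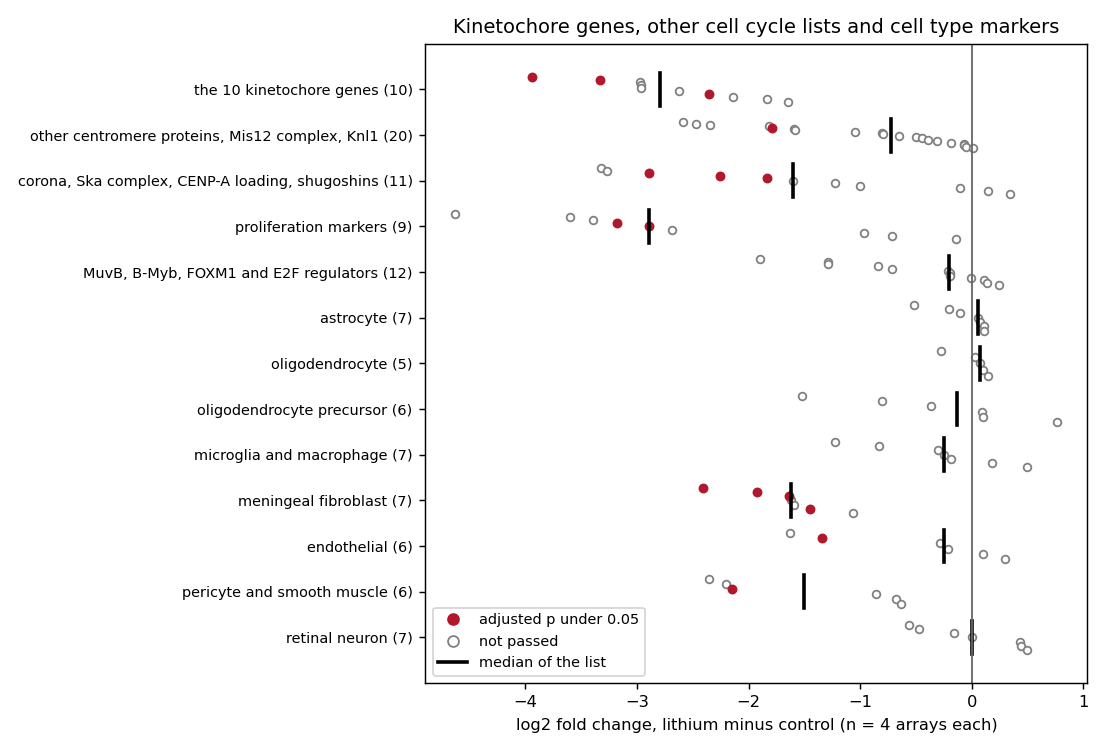
Log2 fold change (Lithium minus Control) of each gene in the kinetochore, proliferation, regulator and cell type lists, with the list's median and with genes at an adjusted p under 0.05 coloured. The 10 kinetochore genes have a median of -2.80 and the astrocyte markers one of 0.06, and numbers in brackets are the genes measured.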

How the data were processed

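RNA of 4 Lithium and 4 Control samples was hybridised to one-colour Affymetrix Mouse Genome arrays. The authors deposited MAS5 intensities on a linear scale, made with GeneSpring GX 12 per the labels' processing notes, without log transformation. Of 45101 probe sets, 64 Affymetrix controls were left out of the tests. Intensities were floored at 1, which applied to 14.5% of values, and taken to log2. The model of Lithium minus Control, without a block, used limma 3.58.1 (lmFit, then eBayes) under R 4.3.3, with Benjamini-Hochberg adjustment over 45037 probe sets. Calls required an adjusted p under 0.05. Of the probe sets, 34945 were paired with 1 symbol and 932 with several, and no gene was named from those with several. Means ± SD refer to linear signals, whereas a fold change compares mean log2 values.

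A group whose 4 values all lay at or under the background limit gave a bound, the mean of the other group over the limits of the group's own arrays. MAS5 subtracts mismatch signal, so that values near the limit are noisy. Precision is limited by how many arrays there are.

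The members and gene lists were chosen with earlier results of these data known. The text names all members, the 3 genes with the lowest adjusted p in each of 4 lists of cell cycle genes and the 5 genes with the most similar profile. Zw10, Kntc1, Pcna, Mcm2, Tyms, Pdgfra, Olig2 and the fallen cell type markers were named after their values were seen.

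The same replicate numbers occur in both groups. After subtracting group means, arrays with the same number correlated in each of 4 pairs (0.130 to 0.197, limit 0.1). On this basis in the data the replicate block was fitted as an alternative, beside the main model, which has no block. Arrays of other numbers within 1 and 2 or 3 and 4 also correlated (0.0706 to 0.131, mean 0.112). Those across correlated negatively (-0.181 to -0.0665, mean -0.136). The positive ranges touch, so pairs by number and a level shared within arrays 1 and 2 or 3 and 4 cannot be told apart.

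Alternatives were quantile normalization, median centring, log2 of the value plus 16, a level limit of 200 before the test or none, averaging all probe sets per gene, no probe sets ending in _x_at, array weights, trended and robust variance, the replicate block, a term that set arrays 1 and 2 against arrays 3 and 4, and each array left out. In simulated data for this comparison with 45037 probe sets, 65 of 100 shifts of 1.5 and 94 of 100 shifts of 3 (log2) were recovered, and 14 of 173 calls were wrong. The shifted probe sets all had a mean log2 signal above 4, and the drawn values were not floored. These recovery rates therefore do not cover genes of lower signal, such as Ndc80, Cenpe, Cenpf and Cenph. Figures used matplotlib 3.10.9.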

Additional observations from a re-analysis of the deposited data

Results flagged for a closer look

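In 20 groups of 4 samples tested (10 genes in each of Lithium and Control), the highest or lowest sample stood apart in 2, where chance gives about 1 in 20. The gap to the nearest sample, as a share of the group's range, was compared with Dixon's critical value for 4 samples. For Ndc80 in Lithium the share was 1, because Lithium 1, 2 and 3 were under 1 and set to 1, and Lithium 4 (3.60) was itself at or under the background limit. For Cenpf in Lithium the share was 0.836, from Lithium 2 (1.07), which was at or under the limit while the other Lithium values were 5.84, 8.14 and 6.09.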

How the results depend on the processing

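No alternative reversed the direction of any of the 10 kinetochore genes. The count of the 10 that fell, 3 in the main setting, was 6 with quantile normalization (where 2.64% of all genes fell, against 2.05%), 6 with median centring (2.36%), 5 with log2 of the value plus 16 (3.47%), 6 with trended and robust variance (3.00%), 4 with a gene's probe sets averaged (1.73%), 10 with the term for arrays 1 and 2 against 3 and 4 (5.71%), 0 with the replicate block (0.346%) and 1 to 3 with an array left out (0.330% to 1.31%). The 5 with log2 of the value plus 16 were Nuf2, Spc24, Cenpa, Cenph and Zwilch, not Ndc80. At an unadjusted p under 0.05, 8 of the 10 were lower with probe sets averaged, against 10 in the main setting. The share of all genes at that threshold was not counted with probe sets averaged. Their median log2 fold change was -1.36 with log2 of the value plus 16, which compresses low signals, and -3.09 to -2.31 with an array left out. The count of the other 31 kinetochore genes that fell, 4 in the main setting, was 7 with quantile normalization, 9 with median centring, 7 with log2 of the value plus 16, 17 with the array term, 5 with the replicate block and 1 to 3 with an array left out. With the further limits on fold change and level the count of the 10 was 0, also with each array left out, and it was 3 without the level limit. With the level of 200 required before the test none of the 10 was tested. Cenpa kept its call in every alternative that tested it except the replicate block. Over all probe sets, 425 higher and 625 lower calls became 20 and 104 with the block. Lithium signals near the background limit, in 6 of the 10 genes, limit what these arrays show of the size of each change.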
